A study of Mus musculus with 40 samples.

Results

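Collagens are the main structural proteins of the extracellular matrix. Each is built of alpha chains wound into a helix, and each chain is the product of its own Col gene. The fibrillar collagens form the tensile fibres of the stroma, FACIT collagens sit on the surface of those fibres, collagen IV makes the sheet of the basement membrane under epithelium and vessels, and collagen VI forms beaded filaments close to cells. In the mammary gland the fibres are laid down mainly by fibroblasts, while epithelium, vessels and fat cells each rest on a basement membrane.

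The family was taken as every gene whose symbol is Col, a number, the letter a and a number, which gave 42 of the 18193 genes that had a probe set with exactly 1 gene symbol. Where a gene had several probe sets, the brightest one on average stood for it. The 42 genes fell into 9 classes: 11 fibrillar, 9 FACIT, 6 basement membrane, 5 beaded filament, 4 transmembrane, 3 network (VIII and X), 2 multiplexin, 1 anchoring fibril (Col7a1) and 1 other (Col26a1). A mean level of at least 5 on the log2 scale was reached by 29 of them; the other 13 had means under 5, as did 52.2% of all probe sets. Most of those 13 lay near the floor of the array summaries throughout, but Col23a1 averaged 4.87, Col6a4 reached 6.91, Col2a1 and Col4a6 reached 8.46 and 5.16 on tumour arrays, and Col8a2 lay between 6.03 and 8.81 in tumours. A further 2 listed collagens, Col6a6 and Col28a1, were not analysed here.

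The arrays came from 8 groups of 5. In WAP-TNP8 mice the SV40 T/t-antigen is made in mammary epithelium under the WAP promoter and is switched on by lactation. Their breast tissue was sampled 1, 2, 3, 4 and 5 months after that activation (1M, 2M, 3M, 4M, 5M), invasive breast tumours were taken from them at 4 or 5 months (invasive_tumour), and glands of WAP-TNP8 mice with the oncogene not yet activated (before_activation) and of BalbC wild type mice (wild_type) made up 10 controls. None of the groups is labelled as wild type after lactation, so an active oncogene and a past lactation cannot be told apart against these controls. The labels name replicates and no animals, so the p-values measure the spread between these samples only. All values below are log2 intensities and differences on that scale; differences carry the standard error (SE) of the limma fit, group means the SD, and a gene passed where its adjusted p was at most 0.05. The stricter thresholds of the study, an adjusted p of at most 0.01 and at least a 5-fold change, are named as such.

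Several array-wide facts touch the results. Of the 29 collagens above the floor, 23 (79.3%) had their highest control value on a single array, before_activation replicate 1, against 17.4% of all 11357 genes above the floor. On that array Col1a1 read 12.38, where the other 9 controls lay between 9.28 and 10.52, and Col7a1 read 10.53, where the others lay between 6.49 and 7.49. Its fibroblast marker mean was 13.95, with the 10 controls between 13.34 and 13.95, and its adipocyte marker mean was 13.52, the lowest of the 10, which reached up to 14.81. Its means for basal and myoepithelial (11.48), macrophage (11.95) and Schwann cell markers (11.59) were also the highest of the 10. Whether tissue make-up has a part in this was not tested, and results that change without this array are given with it left out. The array was singled out by these same collagen levels, and leaving out the highest control raises a gene's difference from the controls. Calls of higher genes gained in that way are therefore no independent support. Col1a1 and Col7a1 were also highest in their groups on 2M replicate 1 (11.42 and 9.55) and on 3M replicate 1 (11 and 8.18). Those gland arrays were kept when the control array was left out. Marker lists for skeletal muscle, epidermis and lymphocytes varied from array to array in several groups, and 7 arrays carried less of a labelling control. These were 5M replicates 2 to 5, wild_type replicates 4 and 5 and before_activation replicate 5, so the lower level nearly coincided with 5M among the glands after activation.

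Promoter sequences were at hand for 33 of the 42 genes in RefSeq (GRCm38.p6). Shown are the bases before the earliest annotated start of 3 genes of cartilage-type fibrils that were higher in tumours, Col9a1, Col9a2 and Col11a1, and of Col4a5, the basement membrane gene that was higher in each comparison with the controls. They lie on the plus strand at chr1:24177360-24177588, chr4:121039316-121039565, chr3:114030290-114030478 and chrX:141475169-141475369, each read 5′ to 3′. The stretches were cut at the earliest annotated start, which left out 21, 0, 61 and 49 bases of the 250 upstream in the order shown. Capitals mark the GC box letters GGGCGG and the CCAAT box letters CCAAT, on either strand.
Col9a1: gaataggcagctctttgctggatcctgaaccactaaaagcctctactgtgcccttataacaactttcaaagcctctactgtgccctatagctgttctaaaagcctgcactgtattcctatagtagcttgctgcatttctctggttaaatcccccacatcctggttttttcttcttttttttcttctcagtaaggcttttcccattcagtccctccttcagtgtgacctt
Col9a2: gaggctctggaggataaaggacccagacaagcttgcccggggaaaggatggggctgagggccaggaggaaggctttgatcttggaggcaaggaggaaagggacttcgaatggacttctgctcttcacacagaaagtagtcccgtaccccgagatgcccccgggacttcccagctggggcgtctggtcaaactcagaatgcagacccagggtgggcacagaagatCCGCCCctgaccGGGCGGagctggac
Col11a1: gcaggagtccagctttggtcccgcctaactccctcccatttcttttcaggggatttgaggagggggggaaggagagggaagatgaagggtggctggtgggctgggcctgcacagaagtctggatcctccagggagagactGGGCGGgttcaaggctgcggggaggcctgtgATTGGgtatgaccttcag
Col4a5: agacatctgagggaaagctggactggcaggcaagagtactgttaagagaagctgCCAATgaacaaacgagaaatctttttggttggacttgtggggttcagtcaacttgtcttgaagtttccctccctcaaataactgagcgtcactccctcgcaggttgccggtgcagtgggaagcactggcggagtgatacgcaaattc
The stretch before Col9a1 held neither motif and had 43.2% G and C, while those of Col9a2 (2 GC boxes) and Col11a1 (1 GC box and 1 CCAAT box) had 60.4% and 60.3%. Col4a5 had 1 CCAAT box and 49.8% G and C. Over the whole windows of 250 bases, Col4a5 had 1 GC box and Col11a1 had 2. In windows of 250 bases, GGGCGG was present in 21 of 36 collagen promoters (58.3%) and in 32.7% of all 32851, CCAAT in 36.1% and 33.8%, and the TATA box letters TATAAA in 13.9% and 12.4%. The 4 printed stretches held no TATAAA. A match is a run of letters and not a measured binding site.

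The comparison of tumours with the controls asks which collagens differ in invasive disease. Of the 42 collagens, 12 were higher and 10 lower in invasive_tumour and 20 did not pass, beside 19.5% of all genes higher and 20.6% lower. At the thresholds of the study 8 were higher and 4 lower (3.29% and 5.9% of all genes). The median difference over the family was -0.01 and that over all genes -0.01. In 7 genes every tumour lay above every control and in 5 every tumour lay below, beside 9.33% and 12.4% of all genes. The FACIT class had 5 of 9 members higher and the beaded filament class 3 of 5 lower with none higher, while the fibrillar class had 2 of 11 in each direction.

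**Figure D1:**
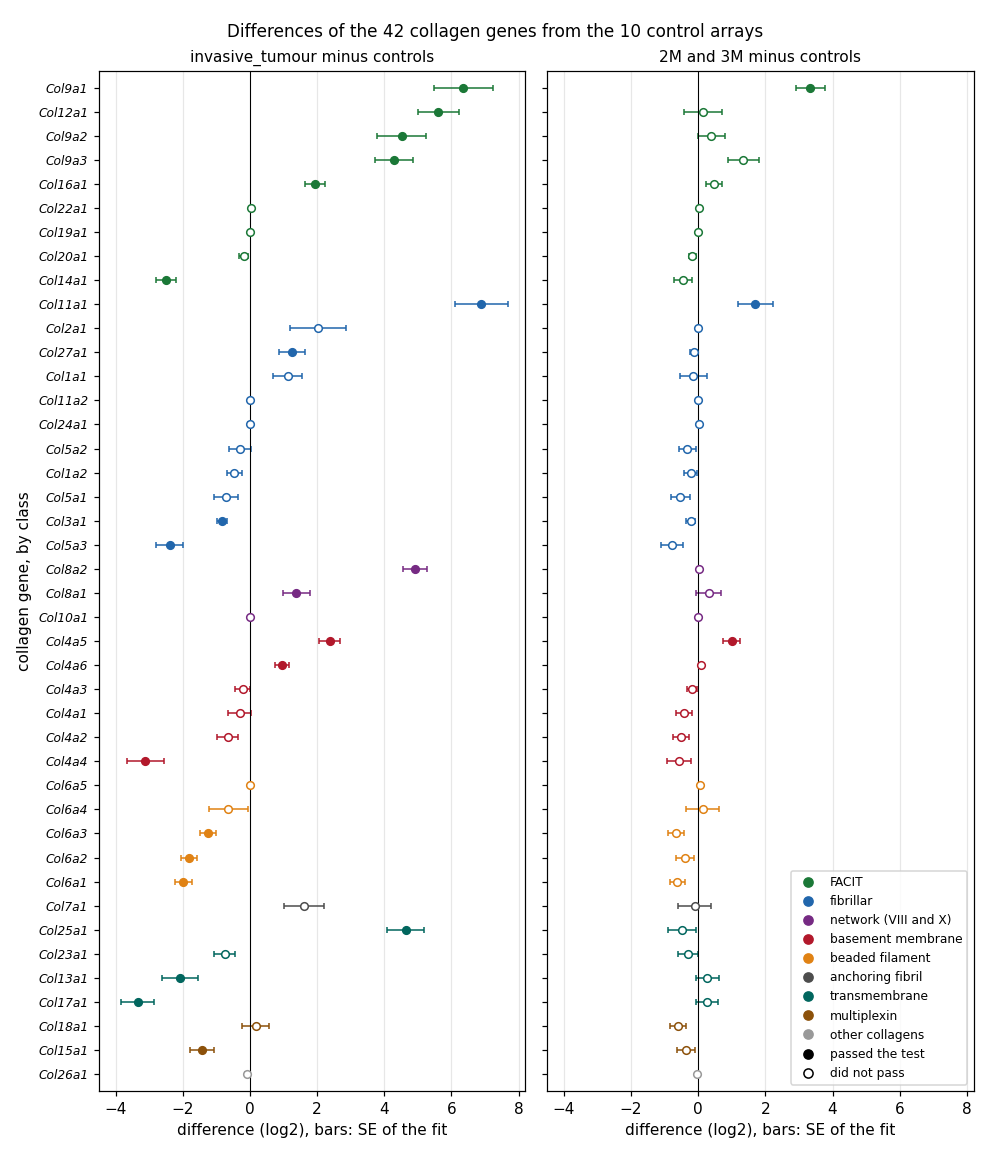
Difference of each of the 42 collagens (log2, points with the SE of the fit) in invasive_tumour (left) and in 2M and 3M together (right) from the 10 controls, by class; filled points passed the test. In tumours 12 genes lie to the right of 0 and 10 to the left as filled points; in 2M and 3M only Col9a1, Col11a1 and Col4a5 are filled.

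Collagen IX decorates the collagen II and XI fibrils of cartilage and is assembled from the products of Col9a1, Col9a2 and Col9a3. All 3 genes rose in tumours. Col9a1 read 14.50, 14.58, 8.94, 12.61 and 14.12 in the tumours, against controls from 5.14 to 9.29 with a median of 6.40. The difference was 6.35 ± 0.88 (adjusted p = 5.13e-05, higher in 5 of 5 tumours). The lowest tumour, replicate 3, lay below the highest control, so the groups overlapped there. Col9a2 had 12.17, 10.20, 7.24, 10.09 and 7.46 in tumours, against 4.34 to 7.50 in controls (median 4.57), a difference of 4.51 ± 0.74 (adjusted p = 0.000229). Tumour replicates 3 and 5 lay just under the top control value, which came from before_activation replicate 1. Col9a3 had 12.81, 13.16, 12.31, 12.37 and 12.82 in tumours, against 7.06 to 11.08 in controls (median 7.92), with no overlap and a difference of 4.29 ± 0.56 (adjusted p = 2.98e-05).

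Col11a1, a chain of the minor fibrillar collagen XI that in cartilage joins collagen II, had the largest rise of the family. Its tumour levels were 12.31, 12.50, 7.94, 12.76 and 11.67, against 3.23 to 7.34 in controls with a median of 4.10. No tumour fell within the control range, and the difference was 6.89 ± 0.79 (adjusted p = 9.06e-06). Replicate 3 was again the low tumour, and it was the lowest of the 5 tumours for 6 of the 12 collagens that rose. A dimmer probe set of Col11a1 gave 7.06 ± 0.91. Col2a1, the major fibrillar collagen of cartilage, lay at the floor in all gland arrays (2.00 to 2.15 in controls) and in tumours read 2.11, 8.46, 2.09, 5.39 and 2.52. It was thus well above the floor in 2 of 5 tumours and did not pass (2.02 ± 0.82, adjusted p = 0.0756), although it did when tumour replicate 1, 3 or 5 was left out (adjusted p = 0.0356, 0.0326 and 0.0482). Col11a2 stayed at the floor everywhere, between 1.86 and 1.96.

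The other FACIT genes moved both ways. Col12a1, whose product coats collagen I fibrils in dense and injured tissue, read 10.21, 11.62, 11.98, 12.56 and 11.28 in tumours, against 4.31 to 8.28 in controls, a rise of 5.61 ± 0.62 with no overlap. Col16a1 rose by 1.93 ± 0.31, at 12 ± 0.37 in tumours and 10.07 ± 0.65 in controls. Col14a1, a fibril-associated collagen typical of quiescent stroma, fell instead: its tumour levels were 9.12, 9.67, 9.60, 9.58 and 9.73, against 10.81 to 13.08 in controls, and every tumour lay below every control (-2.51 ± 0.31, adjusted p = 1.71e-05). Col19a1 (-0.01 ± 0.02), Col20a1 (-0.19 ± 0.14) and Col22a1 (0.03 ± 0.03) did not pass.

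Of the network-forming collagens VIII and X, the short-chain collagens that form lattices under endothelium and cornea and in growth cartilage, Col8a2 showed the plainest pattern. It was at the floor in all 10 controls, between 2.58 and 2.74, and read 8.23, 8.81, 6.60, 8.27 and 6.03 in tumours. The difference of 4.91 ± 0.35 (adjusted p = 1.28e-07) is set against that floor and so depends on it. Col8a1 rose by 1.38 ± 0.39 (adjusted p = 0.0133), although tumour replicate 1, at 10.99, lay inside the control range of 9.97 to 12.09. Col10a1, the collagen of hypertrophic cartilage, read between 2.02 and 2.22 on all 40 arrays.

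**Figure D2:**
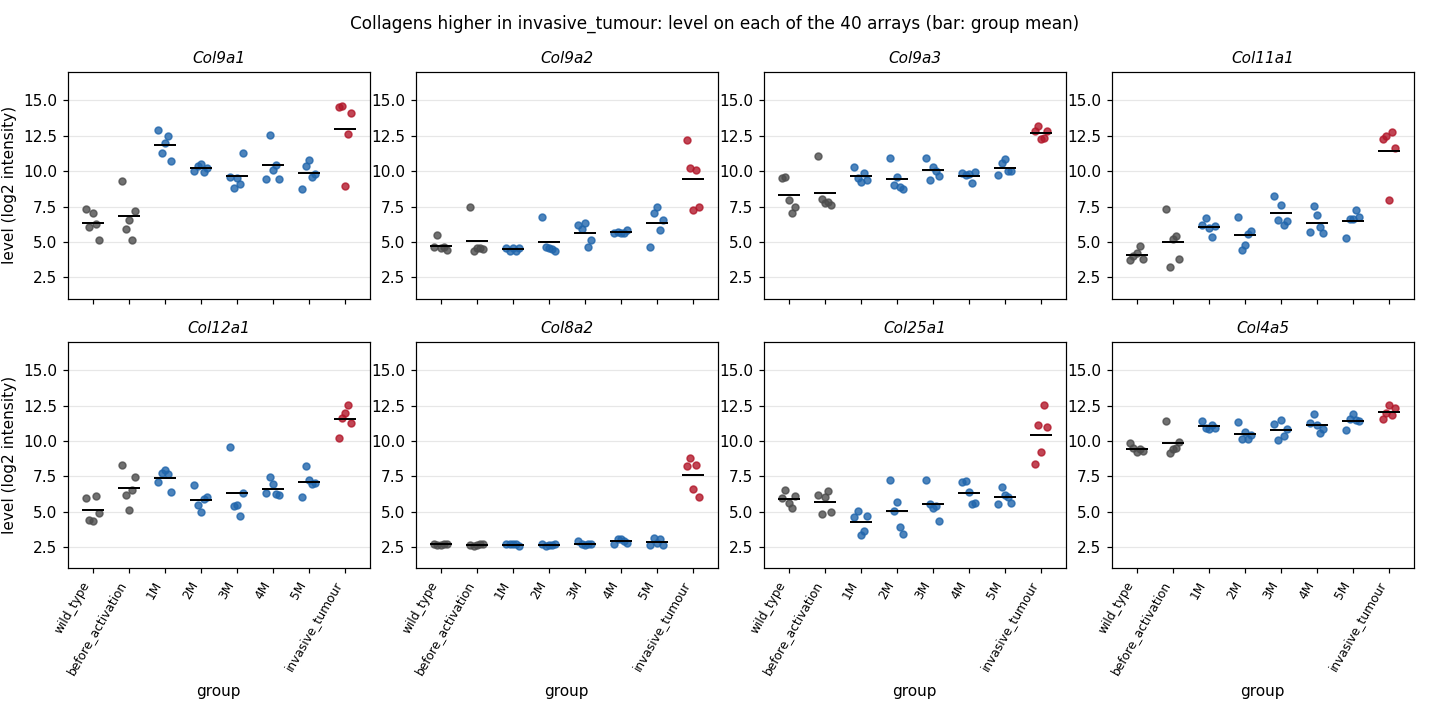
Level (log2 intensity) of 8 collagens on each of the 40 arrays by group, controls at the left and tumours at the right, with group means as bars. Col9a1 and Col4a5 are above the control means from 1M on, whereas Col8a2, Col12a1 and Col25a1 stand apart in the tumours, and tumour replicate 3 is low for Col9a1 (8.94) and Col11a1 (7.94).

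The interstitial collagens I, III and V, which make up most of the stromal fibres, did not rise as a class. Col1a1 had 11.07, 11.99, 10.55, 11.93 and 10.60 in tumours, against 9.28 to 12.38 in controls (median 9.83), and its difference of 1.12 ± 0.44 did not pass (adjusted p = 0.0638). Without before_activation replicate 1, the control with the highest Col1a1 level, the difference was 1.38 ± 0.27 and passed (adjusted p = 0.00143). Every tumour then lay above every remaining control. A dimmer probe set of Col1a1 gave 0.33 ± 0.82 against all 10 controls and did not pass (adjusted p = 0.925). Col1a2 read 13.69, 14.18, 14.64, 14.71 and 14.47 in tumours and 14.25 to 15.58 in controls, a difference that did not pass (-0.47 ± 0.23, adjusted p = 0.144). Collagen I is assembled from both chains, and neither gene passed; the sign for Col1a2 depended on the probe set, since another bright one gave 0.07 ± 0.39. Col3a1, at 14.55, 15.08, 15.22, 15.50 and 15.13 in tumours and 15.45 to 16.30 in controls, fell by 0.84 ± 0.16 on the log2 scale (adjusted p = 0.000767).

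Among the chains of collagen V, which sets fibril diameter, Col5a3 fell and the others did not pass. Col5a3 read 8.44, 8.29, 9.18, 9.67 and 8.40 in tumours, against 9.82 to 12.36 in controls, with no overlap and a difference of -2.39 ± 0.40 (adjusted p = 0.000255). Col5a1 (-0.72 ± 0.35) and Col5a2 (-0.30 ± 0.33) did not pass. Col27a1, a fibrillar collagen of cartilage and other tissues, rose by 1.26 ± 0.38 (adjusted p = 0.0189), but not with tumour replicate 1 (adjusted p = 0.0631) or replicate 2 (adjusted p = 0.055) left out. Col24a1, between 2.64 and 3.16 on all arrays, was near the floor.

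The 3 bright chains of collagen VI, which links cells to the fibrous matrix and is abundant in fat and muscle, fell in tumours. Col6a1 read 10.27, 10.59, 11.07, 11.40 and 10.95 in tumours and 12.24 to 13.85 in controls, with no overlap (-1.99 ± 0.25, adjusted p = 1.91e-05). Col6a2 differed by -1.82 ± 0.24, also with no overlap, and Col6a3 by -1.25 ± 0.24, lower in 5 of 5 tumours. Col6a4 (-0.65 ± 0.58) and Col6a5 (0.00 ± 0.03) were dim and did not pass. Col6a1 and Col6a2 are neighbours on chromosome 10 with no protein-coding gene between them.

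**Figure D3:**
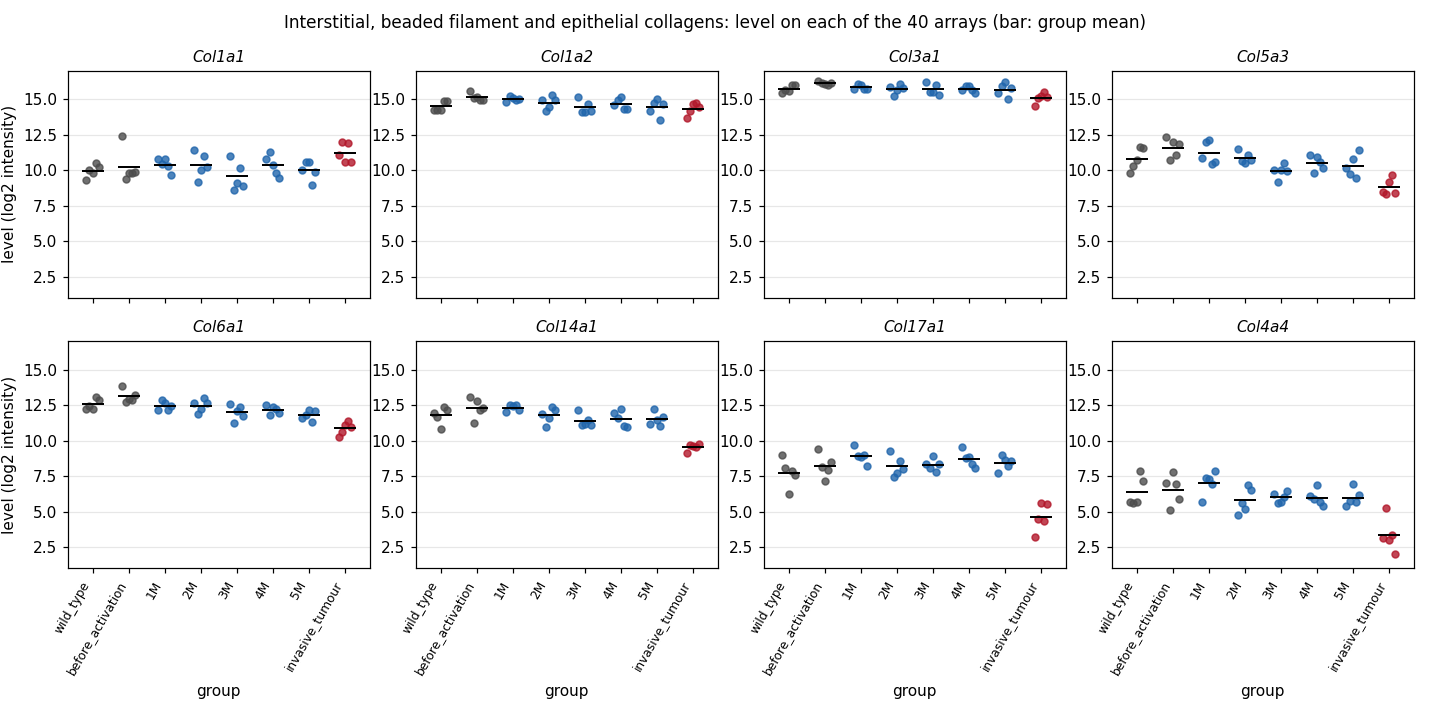
Level (log2 intensity) of 8 interstitial, beaded filament and epithelial collagens on each of the 40 arrays by group, controls at the left and tumours at the right, with group means as bars. The 5 tumours lie below all 10 controls for Col5a3, Col6a1, Col14a1 and Col17a1, and Col1a1 is high on 1 before_activation array (12.38).

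The 6 collagen IV genes lie in 3 neighbouring pairs, and the pairs differed in tumours. The chains of the common basement membrane network, Col4a1 and Col4a2, did not pass. Col4a1 had 13.68, 14.56, 13.14, 14.14 and 12.87 in tumours and 13.02 to 14.85 in controls (-0.31 ± 0.33), and Col4a2 had 10.82, 12.07, 10.64, 11.70 and 10.53 in tumours and 11.17 to 12.51 in controls (-0.66 ± 0.31). For Col4a1 the choice of probe set mattered, since its dimmer probe set was lower in tumours (-1.11 ± 0.23, adjusted p = 0.00167). In the pair of Col4a5 and Col4a6 both were higher. Col4a5 had 11.53, 12, 12.53, 11.80 and 12.30 in tumours, against 9.16 to 11.39 in controls, with no overlap (2.37 ± 0.31, adjusted p = 3.16e-05). Col4a6 was dim but also did not overlap, at 3.28 to 5.16 in tumours and 2.76 to 3.14 in controls (0.96 ± 0.21, adjusted p = 0.00249). Col4a4 fell, with 3.15, 5.22, 2.98, 3.38 and 2.01 in tumours and 5.12 to 7.86 in controls (-3.12 ± 0.55, adjusted p = 0.00044), and its neighbour Col4a3 lay near the floor, with no array above 4.09.

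The collagens anchored in cell membranes did not move together. Col17a1, a hemidesmosome protein of basal epithelial cells, had 3.19, 4.45, 5.62, 4.37 and 5.55 in tumours and 6.24 to 9.40 in controls, with no overlap (-3.35 ± 0.49, adjusted p = 8.32e-05). Col25a1, first known as a brain collagen, had 8.39, 11.11, 9.19, 12.55 and 10.95 in tumours, against 4.87 to 6.51 in controls, a rise of 4.64 ± 0.55 (adjusted p = 1.22e-05) with no overlap. Its other probe set was at the floor. Col13a1 fell by 2.08 ± 0.54 on the log2 scale and Col23a1 did not pass (-0.76 ± 0.31). Col26a1, outside the other classes, did not pass either (-0.09 ± 0.06). Of the multiplexins, proteoglycan collagens of basement membrane zones, Col15a1 had 7.97, 7.88, 8.55, 7.88 and 7.61 in tumours and 7.97 to 10.56 in controls (-1.42 ± 0.36, adjusted p = 0.00623), and Col18a1, the source of endostatin, did not pass. Col7a1, the anchoring fibril of skin and other stratified epithelia, did not pass at 1.61 ± 0.61 (adjusted p = 0.0556), but did without before_activation replicate 1 (1.97 ± 0.35, adjusted p = 0.000539).

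The cell types of the tissue moved at the same time. In tumours all 5 measured fibroblast markers fell, and their mean ranged from 9.49 to 10.94 in tumours and from 13.34 to 13.95 in controls. All 5 adipocyte markers (6.49 to 10.71 in tumours, 13.52 to 14.81 in controls), all 6 endothelial markers (6.40 to 6.92, against 9.28 to 10) and all 5 basal and myoepithelial markers (6.04 to 7.42, against 10 to 11.48) fell too, while of 5 luminal markers 2 were higher and 1 lower (13.37 to 14.11, against 12.36 to 13.65). Of the pericyte and smooth muscle markers 5 of 6 were lower, of the macrophage markers 1 of 5 higher and 2 lower, and of the Schwann cell markers 1 of 2 in each direction. In whole tissue, fewer cells of a type and less RNA per cell cannot be told apart, and the part of these shifts in the collagen differences was not tested. The median fibroblast marker differed by -3.23.

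Tumours were also set against glands of the same months, 4M and 5M together, which tests whether the tumour pattern differs from that of glands sampled at that time. There 13 collagens were higher and 9 lower in tumours (14.9% and 16.2% of all genes), and 21 of the 22 that had passed against the controls passed again in the same direction. In 6 genes every tumour lay above every late gland and in 3 below (5.07% and 7.83% of all genes). The 1 that did not was Col6a3 (-0.49 ± 0.22, adjusted p = 0.132). Among genes above the floor on both sides the largest rises were those of Col11a1 (4.99 ± 0.67), Col12a1 (4.67 ± 0.40) and Col25a1 (4.24 ± 0.56). The largest falls were those of Col17a1 (-3.93 ± 0.37) and Col4a4 (-2.62 ± 0.42). Both were dim in tumours (3.19 to 5.62 and 2.01 to 5.22), so the sizes of these falls may depend on the floor. Col8a2 was higher by 4.71 ± 0.36, a size set by the floor at which it lay in the late glands (2.63 to 3.12). Col7a1 passed here as well (1.47 ± 0.39, adjusted p = 0.0129). The rise of Col9a1 over these glands was smaller, at 2.82 ± 0.84 (adjusted p = 0.0226), and did not pass with tumour replicate 1, 2 or 5 left out (adjusted p = 0.0716, 0.0716 and 0.0616). The calls for Col3a1, Col4a5, Col8a1, Col15a1 and Col27a1 were also lost without 1 or more of the tumours, at adjusted p values up to 0.0856.

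The early comparison, 2M and 3M together against the controls, asks what differed in the glands while the oncogene was active. On the brightest probe sets only 3 collagens were higher and none lower, beside 7.79% of all genes higher and 9.04% lower. In either direction 9 of the collagens had an unadjusted p under 0.05 there. Dimmer probe sets of Col18a1 (-0.83 ± 0.24, adjusted p = 0.0271) and Col4a1 (-0.60 ± 0.19, adjusted p = 0.0417) were lower. The methods' t-test gave no lower collagen, whereas 2 were lower with all 8 groups in 1 fit or over the brighter probe sets alone. Other settings gave up to 3, the number with the replicate block. Col9a1 led. In 2M and 3M it ranged from 8.81 to 11.30 with a median of 9.99, against 5.14 to 9.29 and a median of 6.40 in controls. The difference was 3.34 ± 0.44 (adjusted p = 7.7e-05), about 10.1-fold, and Col9a1 was the 1 member past the thresholds of the study (0.934% of all genes). All 10 early arrays lay above the control mean, and only before_activation replicate 1 reached into their range. A dimmer probe set of the gene gave 1.11 ± 0.34 (adjusted p = 0.0371).

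Col4a5 rose by 0.99 ± 0.26 (adjusted p = 0.0155), at 10.65 ± 0.52 in 2M and 3M and 9.66 ± 0.66 in controls (SD, n = 10 each). Its calls in 1M and in 2M and 3M were lost with before_activation alone as controls, within the arrays of the higher labelling control level, and without the arrays that held lymphoid tissue (adjusted p up to 0.15 in 2M and 3M and 0.354 in 1M); the call in 1M was also lost without the arrays that held muscle (adjusted p = 0.153) and without 1M replicate 1 (0.0659) or 4 (0.0601). Col11a1 rose by 1.70 ± 0.52 (adjusted p = 0.0371), at 4.43 to 8.24 in 2M and 3M and 3.23 to 7.34 in controls, but lost its call when any of 13 of the 20 arrays was left out, and its dimmer probe set did not pass (0.95 ± 0.42, adjusted p = 0.173). Col9a3 did not pass on its brightest probe set (1.35 ± 0.46, adjusted p = 0.062) and passed on another (1.40 ± 0.43, adjusted p = 0.0372). With before_activation replicate 1 left out, 5 collagens were higher, the same 3 with Col9a3 (1.64 ± 0.37, adjusted p = 0.00576) and Col16a1 (0.67 ± 0.16, adjusted p = 0.00801). The early arrays 2M replicate 1 and 3M replicate 1 stayed in that fit. They were the highest of their groups for Col9a3 (10.90 and 10.93) and Col16a1 (11.50 and 11.09). The collagens that fell in tumours did not pass here: Col6a1 differed by -0.62 ± 0.22 and Col5a3 by -0.79 ± 0.32. Beside these values, 3 of 5 adipocyte markers and 2 of 6 endothelial markers were lower in 2M and 3M, and none of 5 fibroblast markers passed. None of 5 lymphocyte markers passed either, but the median of their array means was 8.37 in 2M and 3M and 4.04 in controls. Of the luminal epithelial markers 2 of 5 were higher and 1 lower (array means of 12.81 to 13.76 in 2M and 3M, against 12.36 to 13.65), of the pericyte and smooth muscle markers 1 of 6 higher and 2 lower, and 1 of 5 macrophage and 1 of 2 Schwann cell markers were higher. Their part in the result was not tested.

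At 1M, 1 month after the lactation, Col9a1 stood highest among the gland groups. It read 11.88 ± 0.88 in 1M and 6.60 ± 1.22 in controls, a difference of 5.28 ± 0.59 (adjusted p = 0.000159) with every 1M array above every control, as in 2.26% of all genes. In all, 2 collagens were higher, Col9a1 and Col4a5 (1.38 ± 0.29, adjusted p = 0.0182), and 1 was lower, Col25a1 (-1.52 ± 0.34, adjusted p = 0.0238), beside 4.24% of all genes higher and 1.54% lower. Without before_activation replicate 1, Col11a1 (1.84 ± 0.36, adjusted p = 0.00889) and Col9a3 (1.55 ± 0.40, adjusted p = 0.0415) passed as well. Col25a1 was thus lower at 1M and higher in tumours than in the same controls. The call for Col25a1 did not hold without 1M replicate 3 (-1.28, adjusted p = 0.0703) or 4 (-1.35, adjusted p = 0.0917), nor that for Col4a5 without 1M replicate 1 or 4. At 1M, 3 of 5 macrophage markers (array means of 12.33 to 12.95 in 1M, against 10.97 to 11.95), 2 of 5 luminal markers (13.24 to 13.95, against 12.36 to 13.65) and 1 of 2 Schwann cell markers were higher, and their part in the result was not tested.

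Set directly against 2M and 3M, 1M had 1 collagen higher and none lower (1.07% and 0.55% of all genes), 8 had an unadjusted p under 0.05 in either direction, and the methods' t-test gave 0. The gene was again Col9a1, at 11.88 ± 0.88 in 1M and 9.94 ± 0.73 in 2M and 3M (1.94 ± 0.41, adjusted p = 0.0372); its call was lost when any of 12 of the 15 arrays was left out.

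In the late glands, 4M and 5M together, 6 collagens were higher and 4 lower than in controls (10.7% and 9.86% of all genes). Higher were Col9a1 (3.54 ± 0.49, adjusted p = 7.09e-05), Col11a1 (1.90 ± 0.44), Col4a5 (1.62 ± 0.25), Col9a3 (1.56 ± 0.41), Col16a1 (0.84 ± 0.23) and, by 0.20 ± 0.06 at the floor, Col8a2. Lower were the same collagen VI chains, Col6a1 (-0.87 ± 0.19), Col6a2 (-0.72 ± 0.20) and Col6a3 (-0.76 ± 0.16), and Col18a1 (-0.94 ± 0.22), each in 10 of 10 late arrays. Of these 10, Col18a1 was the 1 that did not pass in tumours. A slightly dimmer probe set of Col18a1 did not pass in the late glands (-0.45 ± 0.23, adjusted p = 0.246). Within arrays of the higher labelling control level, which keep 4M and only replicate 1 of 5M, 2 were higher (Col9a1 and Col4a5) and none lower. With the arrays that held skeletal muscle left out, 3 were higher and none lower. Without before_activation replicate 1, Col9a2 (1.37 ± 0.28, adjusted p = 0.00259) and Col12a1 (1.19 ± 0.39, adjusted p = 0.0443) were higher too and Col23a1 lower (-0.73 ± 0.24, adjusted p = 0.0464). The call for Col8a2 was lost when any of 7 of the 20 arrays was left out. Beside them, 3 of 5 adipocyte and 3 of 6 endothelial markers and 1 of 5 fibroblast markers and 2 of 6 pericyte and smooth muscle markers were lower in the late glands, while 2 of 5 luminal markers (13.33 to 14.28, against 12.36 to 13.65), 1 of 5 macrophage and 1 of 2 Schwann cell markers were higher. Their part in the result was not tested.

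Only Col9a1 and Col4a5 were higher in all 4 comparisons with the controls, which share the same 10 control arrays. A dimmer probe set of Col4a5 did not pass in 1M (1.24 ± 0.34, adjusted p = 0.0589) or in 2M and 3M (0.76 ± 0.26, adjusted p = 0.0609). It passed in 4M and 5M (1.24 ± 0.29) and in tumours (2.15 ± 0.39). Along the series Col4a5 had group means of 9.45 in wild_type, 9.87 in before_activation, 11.04 in 1M, 10.52 in 2M, 10.79 in 3M, 11.13 in 4M, 11.43 in 5M and 12.03 in invasive_tumour. Neighbouring months differed by about as much as their SDs, which lay between 0.21 and 0.57 from 1M to 5M. For Col9a1 the means were 6.37, 6.82, 11.88, 10.21, 9.66, 10.41, 9.85 and 12.95 in the same order, so that 1M was above the later months. In 12 collagens a difference passed in tumours and in no other of these comparisons, and 19 passed in none of the 4, of which 11 had a mean under 5. Between before_activation and wild_type no collagen passed with limma (0% of all genes in either direction). There 12 had an unadjusted p under 0.05, and the methods' t-test gave 2 higher and 5 lower. The groups did not overlap in 2 higher and 4 lower (0.583% and 13.2% of all genes). Higher without overlap were the bright Col1a2 and Col5a2. Lower without overlap were Col10a1, Col11a2, Col2a1 and Col4a6, all with means under 5 and near the floor in both groups.

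Collagen chains need enzymes that hydroxylate, trim and cross-link them, and cells read them through receptors. Of 22 such biosynthesis genes 7 were higher and 6 lower in tumours, where 19.5% of all genes were higher and 20.6% lower. Plod2, the lysyl hydroxylase of the chain ends, rose by 3.54 ± 0.60, at 10.96 in tumours and 7.42 in controls (adjusted p = 0.000307). Pcolce2, an enhancer of procollagen trimming, fell furthest, at 7.04 in tumours and 12.39 in controls (-5.35 ± 0.39, adjusted p = 1.39e-07). Its relative Pcolce (-1.32 ± 0.24), the trimming protease gene Tll1 (-3.15 ± 0.54) and Crtap, a partner of prolyl 3-hydroxylase (-1.20 ± 0.18), fell too. Tll1 lay at the floor in tumours (1.81 to 2.45), so the size of its fall depends on that floor. Of 4 cross-linking oxidases Loxl3 rose (1.74 ± 0.19) and Loxl1 fell (-1.99 ± 0.40), while Lox (-0.29 ± 0.29) and Loxl4 (-0.07 ± 0.06) did not pass. Loxl4 lay near the floor in tumours and controls (means of 2.38 and 2.45). Of 10 receptor and uptake genes 3 were lower and none higher in tumours, beside 20.6% of all genes lower and 19.5% higher: Ddr2, a receptor for fibrillar collagen (-3.41 ± 0.37), the integrin gene Itga1 (-1.83 ± 0.21) and the uptake receptor gene Mrc1 (-1.64 ± 0.27). Ddr1, the epithelial relative of Ddr2, did not pass (0.53 ± 0.25), nor did Itga10 (0.52 ± 0.22), which was dim in tumours and controls (means of 3.05 and 2.53).

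Of 14 partners of collagen IV in the basement membrane 4 were higher and 7 lower in tumours, beside the same shares of all genes. The laminin genes Lama2 (-4.47 ± 0.43) and Lama4 (-1.28 ± 0.20), typical of muscle, fat and vessels, and the linker gene Nid1 (-2.58 ± 0.20) fell, while the epithelial laminin gene Lamb3 (2.90 ± 0.40) and the heparan sulphate proteoglycan gene Agrn (1.79 ± 0.21) rose. In 2M and 3M, where 7.79% of all genes were higher and 9.04% lower, the same lists had fewer calls. Of the biosynthesis genes 1 was higher, P4hb (0.22 ± 0.06), and 5 lower, with Plod1 (-0.96 ± 0.16, adjusted p = 0.000547) and Plod3 (-0.81 ± 0.19) first. Loxl3 was lower (-0.39 ± 0.11), the opposite of its direction in tumours, and Loxl1 (-0.54 ± 0.26) and Lox (-0.24 ± 0.22) did not pass. Itga1 (-0.61 ± 0.15) and Ddr2 (-0.59 ± 0.19) were lower, Lair1 did not pass (0.85 ± 0.48), and of the basement membrane partners Hspg2, the perlecan gene, was higher (0.67 ± 0.16) and 4 were lower, among them Lama4 (-0.77 ± 0.13) and Lama2 (-0.70 ± 0.19).

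**Figure D4:**
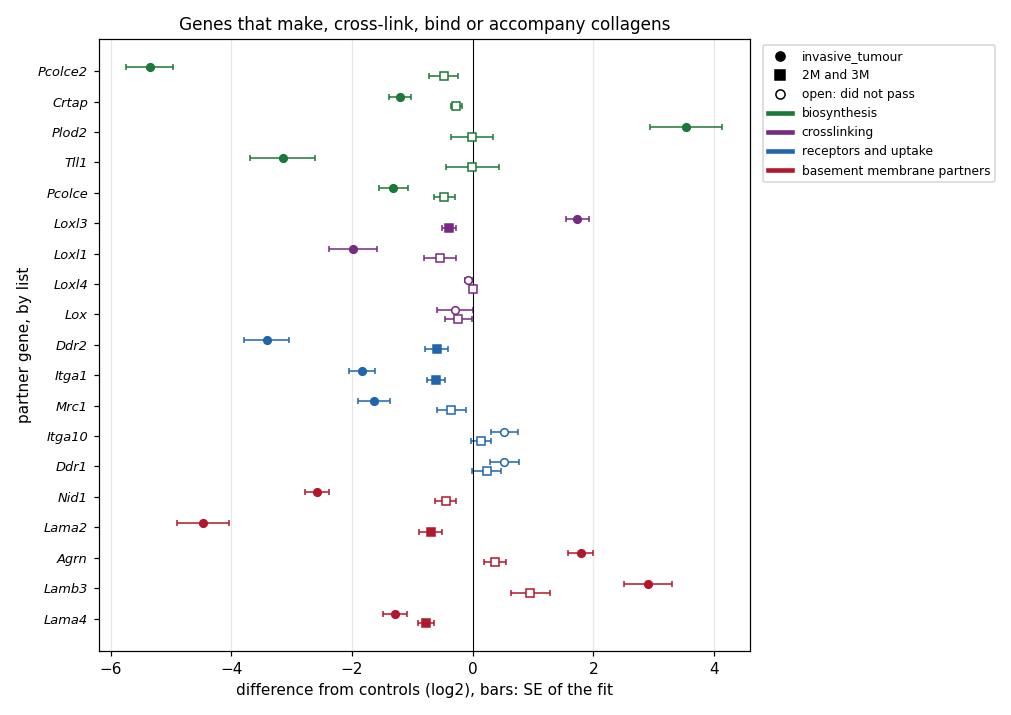
Difference from the 10 controls (log2, points with the SE of the fit) of genes that make, cross-link, bind or accompany collagens, in invasive_tumour (circles) and in 2M and 3M together (squares); filled points passed the test. Plod2, Loxl3, Agrn and Lamb3 lie to the right of 0 in tumours, and Pcolce2 (-5.35) and Lama2 (-4.47) lie furthest to the left.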

How the data were processed

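Breast tissue RNA of 40 samples in 8 groups of 5 was hybridised to Affymetrix mouse arrays. According to the methods, 50 ng of total RNA per sample was amplified in 2 rounds, and GCRMA served for background correction and normalization. The authors deposited linear intensity values of 45101 probe sets (2.03 to 144656) and a table of log2 values centred on each probe set's median; the intensity columns name only the group, so levels were rebuilt from both tables, which differed by at most 1.04e-06. Depth has no meaning for arrays; their number limits the precision.

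Log2 intensities were tested with limma 3.58.1 (R 4.3.3, the package data.table in version 1.17.8), a fit of 2 levels for each of 7 comparisons, two-sided, Benjamini-Hochberg over 45037 probe sets without 64 control probe sets; 34945 had 1 symbol, 932 several and 9160 none. The fit was tested on simulated data. Alternatives were another test, filter, offset of 32, centring, probe set rule, table, controls, replicate block and arrays left out. All collagens were accounted for; values array by array went to the member of each class with the largest rise and fall that passed and to Col1a1, Col1a2, Col3a1, Col4a1, Col4a2 and Col6a1, with Col9a2, Col9a3, Col12a1 and Col2a1 added after their values were seen; partners were named by smallest p (5 a list in tumours, 3 in 2M and 3M). The members and lists were chosen with earlier results of these data known. Marker lists are given as counts and array means; Mrc1, also a receptor, and Sox10, also a Schwann cell marker, are named with values.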

Additional observations from a re-analysis of the deposited data

Results flagged for a closer look

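Among the 128 sets of 5 arrays formed by the 16 collagens given array by array and the 8 groups, 5 held an array far from the others; chance flags about 1 in 20 such sets. Col11a1 was 7.94 on invasive_tumour replicate 3, with the other tumours at 11.67 to 12.76. Col14a1 was 9.12 on invasive_tumour replicate 1, with the others at 9.58 to 9.73. Col15a1 was 7.49 on 1M replicate 5, with the others at 9.15 to 9.74, and Col8a2 was 2.60 there, with the others at 2.69 to 2.72, all of them at the floor. Col1a1 was 12.38 on before_activation replicate 1, with the others at 9.36 to 9.84.

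In 12 of these collagens the tumour effect differed from that of glands of the same months, by the direct test of invasive_tumour against 4M and 5M: Col11a1 (4.99), Col8a2 (4.71), Col25a1 (4.24), Col9a1 (2.82) and Col4a5 (0.75) were higher in tumours, and Col17a1 (-3.93), Col4a4 (-2.62), Col14a1 (-1.99), Col5a3 (-1.61), Col6a1 (-1.12), Col15a1 (-0.80) and Col3a1 (-0.60) were lower, on the log2 scale. Col9a1 was higher in 1M than in 2M and 3M (1.94).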

How the results depend on the processing

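In tumours against controls the counts of 12 higher and 10 lower stayed within 1.5 times under every alternative run, although Col15a1 did not pass with wild_type alone (adjusted p = 0.0732). The family median there moved from -0.01 to -0.30 over probe sets with a mean of at least 5, -0.0835 with arrays centred on their median, -0.0411 with wild_type alone as controls, 0.0238 with before_activation alone and -0.0398 without arrays with lymphoid tissue; in 2M and 3M it moved to -0.22, in 4M and 5M to -0.18 (-0.0809 centred) and in 1M against 2M and 3M to 0.23 (0.15 centred). In 2M and 3M, 2 were lower with all 8 groups in 1 fit, 3 with the replicate block, 2 over brighter probe sets, 1 centred and 1 with the mean of a gene's probe sets, in place of none, and 1 was higher, in place of 3, within the higher Dap level (a labelling control), with before_activation alone and without lymphoid arrays. In 1M the number lower was 0 with all groups in 1 fit, the methods' t-test, the replicate block, before_activation alone and without muscle or lymphoid arrays, and 2 over brighter probe sets; the number higher was 1 within the higher Dap level, with before_activation alone and without muscle arrays, 4 with wild_type alone and 0 without lymphoid arrays. In 4M and 5M, 2 higher and 0 lower remained within the higher Dap level, 3 and 0 without muscle arrays and 3 and 2 without lymphoid arrays; 2 were higher with before_activation alone, 1 was lower with wild_type alone and 7 were lower within the lower Dap level. In tumours against 4M and 5M, 6 were higher by the methods' t-test and 8 without muscle arrays. In 1M against 2M and 3M none was higher with all groups in 1 fit, the methods' t-test, the replicate block, or without muscle or lymphoid arrays, and 15 were higher with centred arrays, of which 9 had a mean under 5 (32.9% of all genes were higher in that fit). Between before_activation and wild_type, 6 were lower with all groups in 1 fit, and 2 were higher and 5 lower by the methods' t-test; centring moved the median of all genes there by -0.14. The causes were not tested. Leaving out 1 array gave 2 to 5 higher and 0 to 2 lower in 2M and 3M, 1 to 4 higher and 0 to 1 lower in 1M, 0 to 1 higher in 1M against 2M and 3M, and a tumour median of -0.0563 to 0.000758. The Dap block, the lower Dap level and the muscle, epidermis and lymphoid alternatives were chosen after seeing the data. Replicate numbers were not taken to pair the samples. Same-numbered samples correlated at -0.453 to 0.692 (mean 0.0569). In 1 of 28 group pairs, before_activation with 3M, every pair was over 0.1 (0.246 to 0.692). Among wild_type, before_activation, 2M and 3M, same-numbered samples were more alike than others. Their mean correlation was 0.193 (before_activation with 2M) to 0.428 (before_activation with 3M), against -0.049 to -0.105 between other numbers. What makes them alike was not tested. Beyond the counts given above, the replicate block changed no count by over 1.5 times.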

Other observations

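Other genes of cartilage matrix and its regulators, and beside them Sox10, were chosen after their values were seen, 15 in all. They are given as levels only, for invasive_tumour and the controls, and for Sox10 also in glands after activation. Acan, the core protein of aggrecan, averaged 2.28 in tumours and 1.99 in controls, Hapln1, the link protein, 2.75 and 2.77, Matn3 2.80 and 2.80, and Chad 2.51 and 2.55, all near the floor. Matn4 (5.38 and 5.42), Chadl (6.27 and 6.39) and Ucma (4.04 and 4.09) had like means in both. Comp ranged from 5.43 to 13.70 in tumours and from 5.87 to 7.32 in controls, and Cnmd from 3.76 to 9.30 and from 4.38 to 8.17. Prg4 averaged 5.37 in tumours and 3.32 in controls, and Matn2 averaged 7.20 and 10.55. Of the Sox genes, Sox5 averaged 8.46 in tumours and 6.46 in controls, Sox6 7.92 and 9.41, and Sox9 10.21 and 9.38. Sox10, which was also on the Schwann cell marker list, averaged 11.65 in tumours, 10.55 in 4M and 5M, 9.68 in 2M and 3M and 8.29 in controls.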
